A study of Mus musculus with 33 samples.

Results

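Small nucleolar RNAs (snoRNAs), small Cajal body RNAs (scaRNAs) and microRNA (miRNA) precursors are among the shortest non-coding RNAs that a gene table lists, and they were followed here through 33 libraries of mouse embryonic stem cells on day 4 of differentiation. The members are the rows with a non-coding RefSeq identifier whose gene symbol begins with Snora, Snord, Scarna, Mir and a digit, Mirlet7 or Snhg. The rule found 543 of the 26566 rows, which carry 539 symbols. Of these, 522 rows are short RNAs: 71 C/D box snoRNAs, 26 H/ACA box snoRNAs, 9 scaRNAs and 416 miRNA precursors. The other members are long transcripts and are kept apart: 16 rows of 12 Snhg genes, which carry snoRNAs in their introns, and 5 miRNA host transcripts, namely Mir17hg, Mir22hg, Mir124-2hg, Mir100hg and Mir99ahg.

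The cells were treated from day 2 with activin A, a ligand of the TGF-β family, at 3, 15 or 100 ng/mL (AA3, AA15, AA100). Others received SB-431542 (SB), an inhibitor of the activin receptor kinases, or neither (SFM, as labelled). The dose set of 7 libraries was made by DP-seq, in which cDNA is amplified by a designed primer set, and holds 1 SB, 2 SFM, 1 AA3, 2 AA15 and 1 AA100 library. Method, input and primer set were varied on AA100 or AA3 mRNA. SMART-seq libraries (2 AA100, 2 AA3) and DP-seq libraries (2 AA100, 1 AA3, with the 44 primers labelled as original) were made from 50 pg of mRNA, and standard RNA-seq libraries (1 AA100, 2 AA3) from 20 ng. A DP-seq dilution of AA3 mRNA ran from 1 pg to 10 ng with 2 libraries at each of 6 inputs. One AA3 library each was made with primer set 1, 2 or 3, designed to suppress ribosomal transcripts, from about 500 pg, and 1 paired-end DP-seq library from about 100 pg. By the labels, nearly all pairs are technical repeats, and no label puts the SFM pair in separate cultures, so p-values measure the spread between libraries, which may be technical only. The labelled state was visible in markers of the dose set: summed primitive streak and endoderm markers were 6.58 CPM (per-million counts of the library total) in SB, 48.0 and 126 in SFM, 339 in AA3, 670 and 778 in AA15 and 1806 in AA100. In the dose set, summed neuroectoderm markers ran the other way and were lowest in AA100, where Rax was at 0. In standard RNA-seq they were 36.2 CPM in AA100 and 29.0 and 32.1 CPM in AA3, and the streak and endoderm markers 2043 CPM in AA100 and 1428 to 1451 CPM in AA3. DP-seq libraries labelled AA3 were not alike between sets. At 10 ng in the dilution, streak and endoderm markers summed to 1377 and 1694 CPM and neuroectoderm markers to 13.5 and 10.75 CPM. The AA3 library of the dose set had 339 and 77.7 CPM. What set these apart was not tested. In bulk samples like these, fewer cells of a type and less RNA per cell cannot be told apart.

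C/D box snoRNAs guide 2′-O-methylation and H/ACA box snoRNAs guide pseudouridylation, mostly of ribosomal RNA, while scaRNAs direct the same reactions on spliceosomal RNAs in Cajal bodies. Most are trimmed out of introns of ribosomal protein, translation factor or Snhg transcripts. MiRNA hairpins are cut from longer primary transcripts by Drosha with Dgcr8 and then by Dicer. Mature snoRNAs and miRNAs have no poly(A) tail, and the protocols here isolated mRNA, so a count on a short row can also come from a polyadenylated transcript that spans it. The sources used here give neither strand nor counting rule, and reads of a short RNA and of its host cannot be told apart.

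The sequences of the snoRNAs that led the counts or that separated the primer sets follow as GENCODE M21 (GRCm38.p6) lists them. Capitals mark, in C/D box snoRNAs, the C box letters TGATGA within the first 25 bases and the D box letters CTGA starting within the last 16, and in H/ACA box snoRNAs the letters ACA starting within the last 8. Only the strand shown was searched. Both C/D letters were found in 42 of 68 C/D sequences (61.8%) and ACA in 25 of 25 H/ACA sequences. Snord22 holds CTGA but not TGATGA in these windows.
Snord123: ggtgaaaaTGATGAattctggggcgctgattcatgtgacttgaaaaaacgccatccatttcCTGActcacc
Snord22: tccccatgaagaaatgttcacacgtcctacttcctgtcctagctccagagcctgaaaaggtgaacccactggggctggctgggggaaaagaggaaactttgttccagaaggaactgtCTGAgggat
Snord14a: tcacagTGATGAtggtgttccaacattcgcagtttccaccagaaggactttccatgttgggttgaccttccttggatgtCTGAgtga
Snord96a: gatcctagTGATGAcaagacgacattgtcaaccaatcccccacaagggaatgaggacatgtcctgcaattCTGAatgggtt
Snord104: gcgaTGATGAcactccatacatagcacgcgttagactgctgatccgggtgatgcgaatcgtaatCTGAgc
Snora70: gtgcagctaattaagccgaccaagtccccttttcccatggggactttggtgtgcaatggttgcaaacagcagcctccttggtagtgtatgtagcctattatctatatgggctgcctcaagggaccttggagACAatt
Snora31: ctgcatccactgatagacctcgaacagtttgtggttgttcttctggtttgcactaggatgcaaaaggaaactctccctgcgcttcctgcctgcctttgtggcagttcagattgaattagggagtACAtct
Snora17: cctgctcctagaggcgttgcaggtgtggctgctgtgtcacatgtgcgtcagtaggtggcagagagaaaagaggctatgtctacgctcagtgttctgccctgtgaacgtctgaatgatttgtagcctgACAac
Snora65: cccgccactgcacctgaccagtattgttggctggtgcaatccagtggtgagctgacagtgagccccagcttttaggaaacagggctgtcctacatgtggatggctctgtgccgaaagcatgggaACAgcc
Snora68: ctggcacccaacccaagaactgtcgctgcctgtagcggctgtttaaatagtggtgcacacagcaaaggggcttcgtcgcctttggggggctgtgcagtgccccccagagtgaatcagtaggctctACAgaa

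Most short RNA rows held few counts or none, and a far larger share of snoRNAs than of miRNA precursors was counted. At least 1 count in any library was found for 57 of 71 C/D snoRNAs (80.3%), 22 of 26 H/ACA snoRNAs (84.6%), 6 of 9 scaRNAs (66.7%) and 74 of 416 miRNA precursors (17.8%), against 82.0% of the other non-coding rows and 79.9% of the coding rows. All 522 short rows together held 20955 counts over the 33 libraries, and 363 of them held none. In contrast, the Snhg rows held 250475 counts. No more than 62 short rows reached 10 counts in a library and 9 reached 100. Per 100 bases of the RefSeq record, summed over all libraries, Snord123 led with 3530 counts, followed by Mir703 with 2495, Snord22 with 2361, Snora68 with 1073 and Snord104 with 881, a sum in which the deep SMART-seq libraries weigh most. By mean CPM per 100 bases, which weighs libraries equally, Snord22 led with 9.39, followed by Snord123 with 8.37, Mir703 with 4.25, Snora70 with 2.17 and Snora17 with 1.67. Mir703 alone held 2719 of the 3495 miRNA precursor counts.

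The methods differed in how many short RNAs they showed, and not in the order of their depth. Library totals ran from 25897343 to 30609013 counts in SMART-seq, from 10678979 to 13389156 in 50 pg DP-seq and from 10389043 to 10738438 in standard RNA-seq. With at least 1 count, SMART-seq detected 66 and 62 short RNAs in AA100 and 73 and 71 in AA3, 50 pg DP-seq detected 24 and 27 in AA100 and 26 in AA3, and standard RNA-seq detected 76 in AA100 and 81 and 87 in AA3. The 3 methods did not overlap. After each library was thinned to 10389043 counts, the expected number was 54.4 to 59.3 in SMART-seq, 23.7 to 25.9 in 50 pg DP-seq and 76.0 to 86.9 in standard RNA-seq, while 6 of the 7 dose set libraries gave 40.1 to 45.1. The exception was the second SFM library with 19.2. Summed level and breadth differed: short RNAs summed to 66.2 to 74.8 CPM in SMART-seq and 57.7 to 63.4 CPM in standard RNA-seq, although SMART-seq spread them over fewer rows. The 3 leading rows held 48.9% to 50.2% of the short RNA counts in SMART-seq, 53.1% to 63.1% in 50 pg DP-seq and 27.6% to 36.7% in standard RNA-seq. Across all libraries of a method, 21 of the 22 counted H/ACA snoRNAs were seen by DP-seq, SMART-seq and standard RNA-seq alike, whereas 13 of the 74 counted miRNA precursors were.

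**Figure D1:**
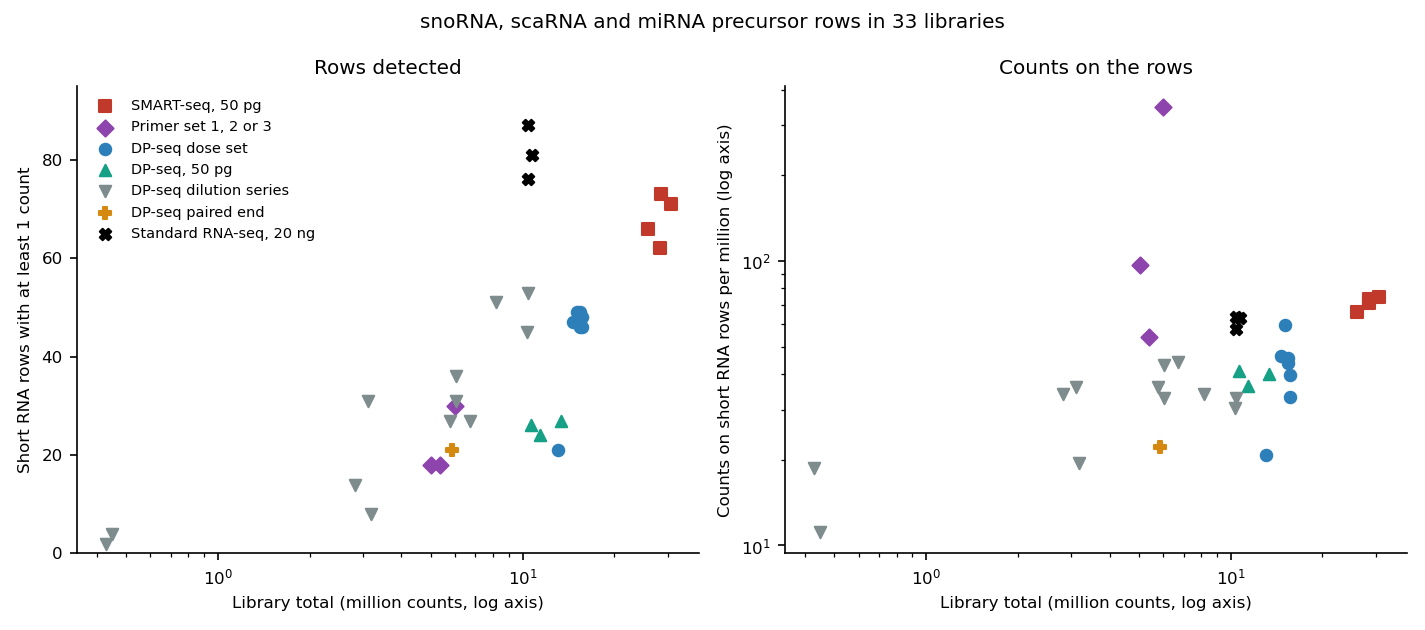
Left, short RNA rows with at least 1 count, and right, the summed CPM on those rows (log axis), against the library total (log axis), 1 point per library with a symbol for each library type. The standard libraries sit highest on the left (76 to 87 rows) at totals below those of SMART-seq, and primer set 1 sits highest on the right (347 CPM).

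The second SFM library stands apart from the other dose set libraries and is part of every comparison with SFM. It held 272 short RNA counts, of which Mir703 made up 68.0%, and no count of Snora17, against 89 in the first SFM library. Snhg12 had 13 counts there and 1675 in the first SFM library, while Snhg6 had 13081 and 2574.

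The share of snoRNAs counted differed by their place in the host. By RefSeq positions set against GENCODE M21 on the same strand, 28 snoRNAs and scaRNAs lie in an intron that some annotated transcript of the host retains, and 26 of these (92.9%) were counted; the median host level was 648 CPM. Of 56 in other introns, 44 (78.6%) were counted, at a median host level of 241 CPM. Of 14 in exons, 8 (57.1%) were counted, at a median host level of 38.1 CPM. By host level, 65 of 79 snoRNAs and scaRNAs (82.3%) were counted where the host averaged at least 10 CPM, and 7 of 10 (70.0%) where it averaged less. For miRNA precursors, 28 of 93 (30.1%) were counted where the host averaged at least 10 CPM, and 9 of 110 (8.18%) where it averaged less. These shares are descriptions, and the part of host reads in them was not tested. Snord22 lies in Snhg1, Snora70 in Rpl10, Snora65 in Rpl12, Snora31 in Tpt1, Snord96a in Rack1 and Snord14a in Rps13; Snora17, Snora43, Snord104 and Mir703 have no annotated host on their strand.

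Among miRNA families, the clusters known from pluripotent cells differed in how many of their rows were counted. All 5 rows of the miR-302 and miR-367 cluster were counted, with 143 counts in total. The cluster is a hallmark of pluripotent and early primed cells. SMART-seq AA100 libraries held 63 and 27 of these counts, SMART-seq AA3 libraries 11 and 15, the standard AA100 library 12 and the standard AA3 libraries 4 and 3, while DP-seq libraries of any kind held at most 4. The SMART-seq groups did not overlap, but the gap between the 2 AA100 libraries was larger than that between the groups' nearest values. Single rows were small: Mir367 reached 24 counts, Mir302b 16, Mir302d 10, Mir302a 7 and Mir302c 6, all in the first SMART-seq AA100 library. The rows have no host on their own strand, and Larp7 lies on the other strand. Of 7 rows of the miR-290 cluster, the main miRNAs of mouse embryonic stem cells, 1 was counted, with 2 counts in all. The miR-17/92 cluster and its paralogs, which promote proliferation, had 6 of 15 rows counted (158 counts), led by Mir25 in Mcm7 with 61 and Mir363 with 56. Of 11 let-7 rows, 3 were counted (40 counts), 37 of them on Mirlet7d. None of 5 miR-200 and miR-141 rows and none of 6 miR-9 and miR-124 rows had a count, and 12 of 45 rows of the imprinted Dlk1-Dio3 region shared 37 counts.

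The counted families are shown by their mature sequences from RefSeq (GRCm38.p6), with the seed, bases 2 to 8, in capitals. The counts above are on precursor rows and do not measure these mature products. Of these, miR-25-3p, miR-363-3p, miR-367-3p and miR-92a-3p share the seed AUUGCAC, and miR-302b-3p and miR-302d-3p share AAGUGCU.
miR-25-3p: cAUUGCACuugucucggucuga
miR-363-3p: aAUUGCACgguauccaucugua
miR-367-3p: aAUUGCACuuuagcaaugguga
miR-92a-3p: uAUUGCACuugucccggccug
miR-302b-3p: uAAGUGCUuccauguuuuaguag
miR-302d-3p: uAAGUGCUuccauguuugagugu
let-7d-5p: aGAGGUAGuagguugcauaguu
miR-703: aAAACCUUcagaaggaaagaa

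Levels of single snoRNAs, as well as their detection, differed between the library methods. Standard RNA-seq also started from more mRNA than SMART-seq and 50 pg DP-seq. Method and input therefore cannot be told apart in any comparison with standard RNA-seq, and the part of each was not tested. Snora68, an H/ACA snoRNA, had 6.91 and 6.81 CPM in SMART-seq AA100 and 10.2 and 9.21 in SMART-seq AA3, 0 and 0.149 in 50 pg DP-seq AA100 and 0 in 50 pg DP-seq AA3, and 2.41 in standard AA100 and 1.30 and 1.44 in standard AA3. Snord104, a C/D snoRNA, had 5.06 and 6.84 CPM in SMART-seq AA100 and 5.62 and 4.61 in SMART-seq AA3, none in 50 pg DP-seq, and 0.481 in standard AA100 and 0.652 and 0.384 in standard AA3. For both snoRNAs, the SMART-seq libraries lie above all 50 pg DP-seq and standard ones. Mir703 had 16.4 and 13.9 CPM in SMART-seq AA100 and 15.0 and 14.9 in SMART-seq AA3, 0.614 and 1.87 in 50 pg DP-seq AA100 and 1.03 in AA3, and 0.289 in standard AA100 and 5.68 and 3.84 in standard AA3. Snhg9, the host of Snora78, had 12.6 and 14.6 CPM in SMART-seq AA100 and 21.7 and 18.8 in AA3, none in 50 pg DP-seq, and 0.0961 to 0.279 in standard RNA-seq.

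Pooled over both doses, the SMART-seq level was 4.86-fold the standard level for Snora68, 10.9-fold for Snord104 and 89.8-fold for Snhg9. No pooled CPM fold is given for Mir703, whose standard levels differ between AA100 and AA3. Its log2 change below averages AA100 and AA3 and describes neither dose. In edgeR's quasi-likelihood test with TMM scaling and Benjamini-Hochberg adjustment over all genes (threshold 0.05), 16 of 54 members rose in SMART-seq relative to standard RNA-seq and none fell, where 49% of all 14072 genes were called (24.4% higher and 24.6% lower). The other members, 483 of the 522 short RNAs among them, did not pass the filter on low counts. A member could pass it through 1 method alone, as Snhg9 did, which had at most 3 counts in a standard library. Such a member could hardly be called lower in that method, here or in the method comparisons below. The numbers called each way are therefore partly set by the filter. Those that rose were 9 of 12 Snhg genes and 7 of 39 short RNAs: Mir703 (log2 change 5.12 ± 0.64 SE, adjusted p = 0.000362), Snora68 (3.63 ± 0.73), Snord104 (4.90 ± 0.85), Snord123 (2.05 ± 0.37), Snora70, Snora78 and Snord65. Scaling matters for these values: TMM adds 1.47 to a log2 ratio of CPM between these methods, and the median of all genes was −0.29. With library totals and no scaling factors, 11 members were higher and 2 lower, the lower ones being Snhg14 and Snora28. Snord123, Snora70, Snora78, Snhg7 and Snhg10 no longer passed. Of all genes, 8952 were called in place of 6890.

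Set against standard RNA-seq, 5 of 54 members were higher and 12 lower in 50 pg DP-seq (37.3% of all genes called, 16.9% higher and 20.5% lower). The median of all genes was −0.39. Snhg6 (4.85 ± 0.13), Snhg1 (2.31 ± 0.21) and Snhg20 (2.51 ± 0.27) rose with Snord83b and Snord123, while Snora31, Snora65, Snora68, Snora74a, Snord16a, Snord49b, Snord96a and Snord104 fell along with Mir17hg, Snhg8, Snhg14 and Snhg17. Without scaling factors 3 members were higher and 17 lower, and 6421 of all genes were called in place of 5252. Without either standard AA3 library, fewer members and fewer genes in all were called. Snord83b, a C/D snoRNA in Rpl3, had 0.702 and 4.48 CPM in 50 pg DP-seq AA100 and 2.44 in AA3, and 0.193 in standard AA100 and 0.279 and 0.288 in standard AA3. Every DP-seq library lay above the standard ones, but without the second DP-seq AA100 library the call was lost.

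Between the methods that started from the same 50 pg, SMART-seq and DP-seq, 29 of 54 members differed, 25 higher and 4 lower in SMART-seq (52.1% of all genes called, 28.4% higher and 23.7% lower; median of all genes 0.20). By pooled CPM, Snhg9 was at least 202-fold, Snord104 at least 65.3-fold and Snora78 at least 15.8-fold higher in SMART-seq, taking 3 counts over the DP-seq group as the floor. Snora68 was 148-fold higher, with a counting interval of 40.7 to 1220 on 2 DP-seq counts. Snhg8 was 40.5-fold and Mir703 12.4-fold higher. Among members lower in SMART-seq, Snord83b was 18.8-fold lower and Snord58b at least 22.4-fold lower. The second 50 pg DP-seq AA100 library held 60 of the 94 DP-seq counts of Snord83b, and without it the log2 change was −2.54 in place of −3.43 and no longer passed (adjusted p = 0.0508). Snord58b lost its call without the first or the second of these libraries (adjusted p = 0.0614 and 0.054). Snhg6 fell by 1.44 ± 0.09 on the log2 scale. Without either standard AA3 library, which enter the same fit, fewer members and fewer genes in all were called. The 2 rows of Snhg14, a long transcript of the imprinted Prader-Willi region, went opposite ways: the first was higher in SMART-seq than in 50 pg DP-seq by 1.66 ± 0.16 (log2) and the second lower by 2.23 ± 0.42.

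**Figure D2:**
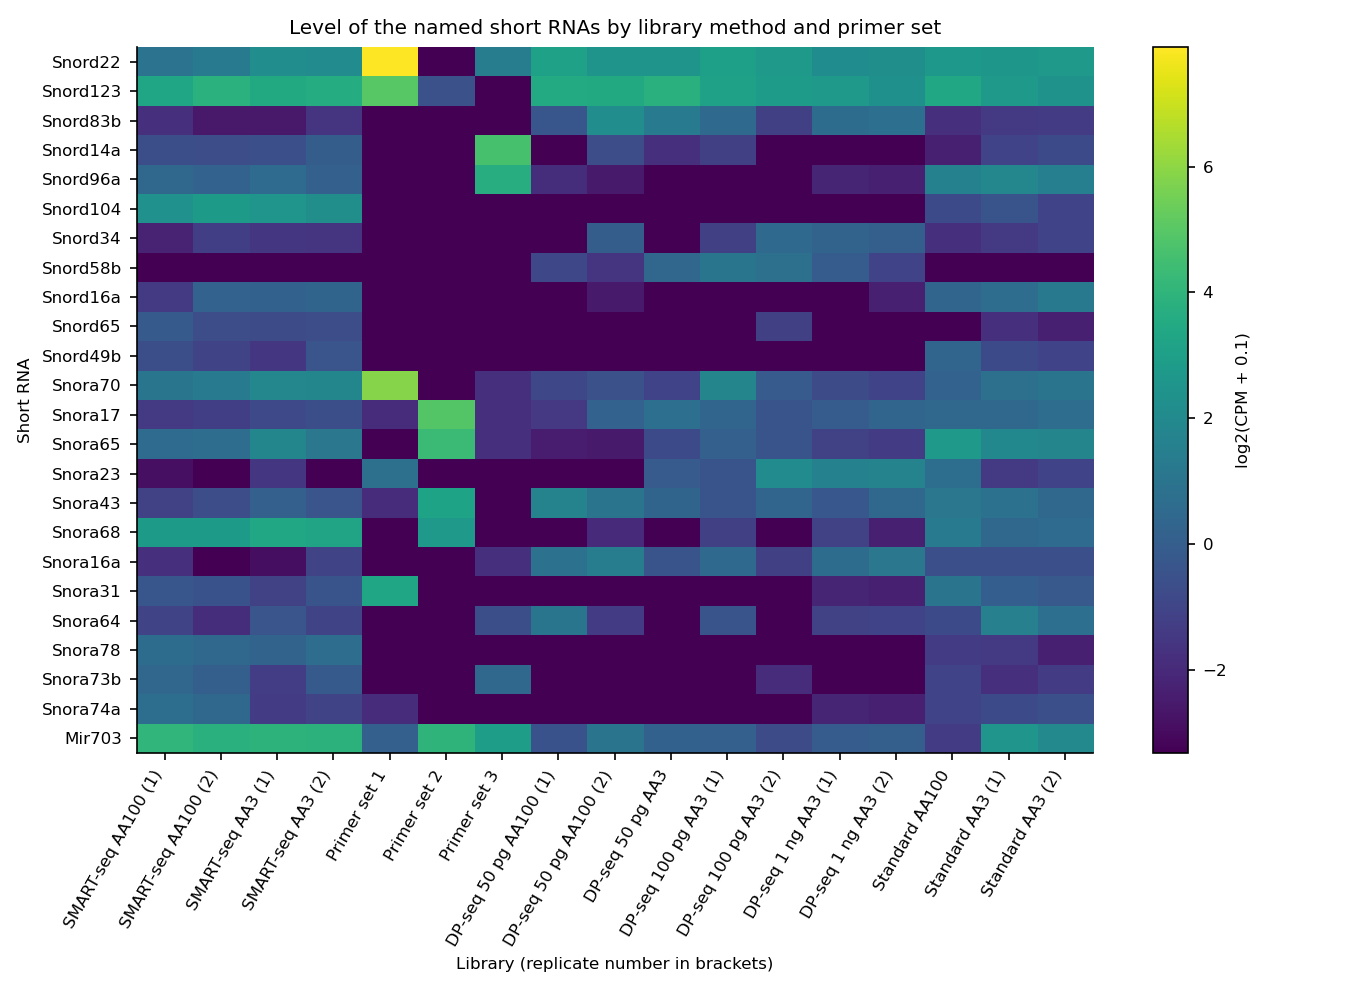
Heat map of log2(CPM + 0.1) of named short RNAs (down the side) in SMART-seq, primer set, DP-seq and standard libraries (along the bottom), from dark (no count) to bright. Snord104 and Snora68 are brightest among the method libraries in SMART-seq, and each primer set column has its own few bright rows, Snord22 and Snora70 in primer set 1, Snora17 and Snora65 in primer set 2, and Snord14a and Snord96a in primer set 3.

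Below 50 pg of mRNA, fewer short RNAs were seen, while Snhg1 was at its highest levels up to 100 pg. In the dilution, 2 and 4 short RNAs had a count at 1 pg, 14 and 8 at 10 pg, 27 and 27 at 50 pg, 36 and 31 at 100 pg, 51 and 53 at 1 ng and 31 and 45 at 10 ng. Library totals ranged from 427556 at 1 pg to 10387268 at 1 ng, and 1 of the 10 ng libraries held 3110866. Thinned to 2815137 counts, the expected number was 14.0 and 7.97 at 10 pg, 22.3 and 21.4 at 50 pg, 29.8 and 23.3 at 100 pg, 33.1 and 30.3 at 1 ng and 29.6 and 26.2 at 10 ng. At this common depth the 10 pg libraries lie below all others. The 1 pg libraries held 8 and 5 short RNA counts, or 18.7 CPM (95% Wilson interval 9.48 to 36.9) and 11.1 CPM (4.76 to 26.1), and Snord22 held 7 of the 8 and 2 of the 5. These intervals cover counting error only.

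Snhg1, the host of Snord22, had 515 and 644 CPM at 1 pg, 617 and 510 at 10 pg, 510 and 448 at 50 pg, 529 and 605 at 100 pg, 218 and 218 at 1 ng and 200 and 190 at 10 ng. The inputs up to 100 pg lie above those of 1 ng and 10 ng without overlap. In the fit of all 12 libraries it rose at 50 and 100 pg relative to 10 ng (log2 change 1.81 ± 0.23, adjusted p = 0.00487), the only one of 22 members tested to do so (2.17% of all genes called, 1.53% higher and 0.647% lower). More members, and more genes in all, were called without either 10 pg or either 1 pg library. Snhg1 was not called without either 10 ng library. At 1 and 10 pg it rose by 2.34 ± 0.24 and Mir22hg fell (2 of 22 members; 20% of all genes called, 4.82% higher and 15.2% lower; median of all genes −0.99). Fewer members, and fewer genes in all, were called without any one of the 50 pg to 10 ng libraries. More of both were called without any one of the 1 pg and 10 pg libraries. Snhg20 showed how unsteady 1 pg libraries are, with 1095 CPM in one and 2.23 in the other.

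**Figure D3:**
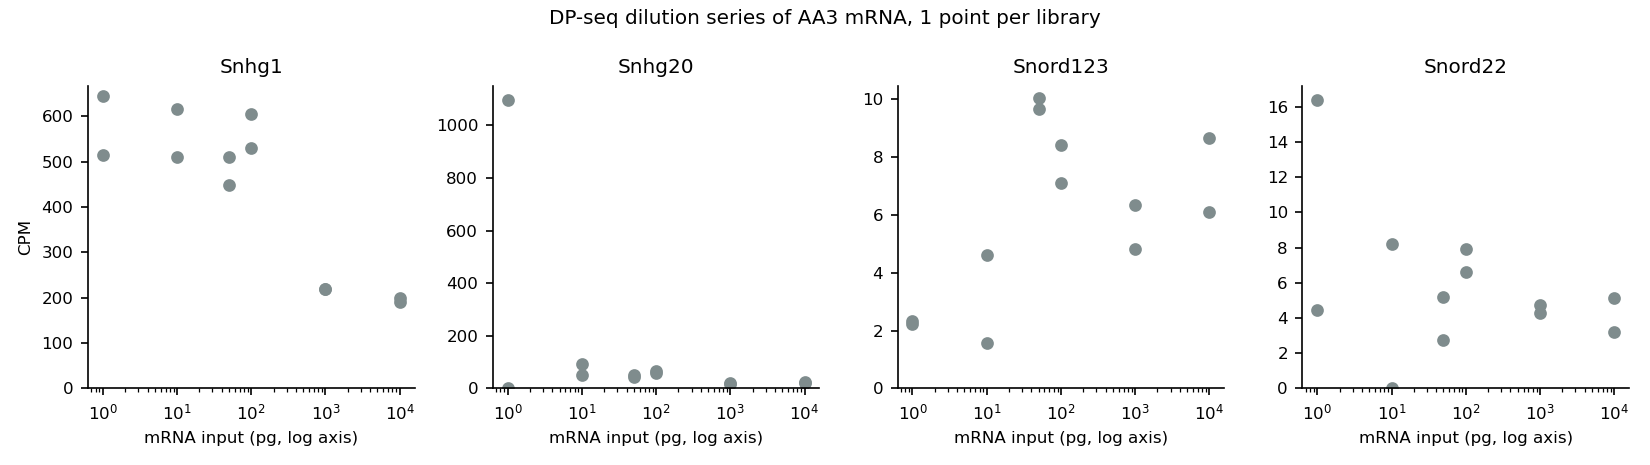
CPM of Snhg1, Snhg20, Snord123 and Snord22 by mRNA input from 1 pg to 10 ng (log axis), 1 point per library. Snhg1 lies between 448 and 644 CPM up to 100 pg and between 190 and 218 CPM at 1 ng and 10 ng, and 1 of the 1 pg libraries stands far above the rest for Snhg20 with 1095 CPM.

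Each primer set brought up its own few snoRNAs. Short RNAs summed to 347 CPM with primer set 1 (95% Wilson interval 332 to 362), 97.0 CPM with primer set 2 (88.8 to 106) and 53.9 CPM with primer set 3 (48.1 to 60.5), compared with 32.9 to 43.1 CPM in the 1 ng and 100 pg DP-seq libraries. Yet they detected 30, 18 and 18 short RNAs, against 31 to 53. These numbers were not thinned to a common depth. The primer set libraries held 5019740 to 5996577 counts, and the 1 ng libraries, which gave the higher numbers, up to 10387268. Snord22 made up 69.0% of the short RNA counts of primer set 1, Snora17 30.8% of those of primer set 2 and Snord14a 46.6% of those of primer set 3. Of the 12 short RNAs that reached 20 counts in a primer set library, 11 had over 90% of their counts over the 3 libraries in a single one. Choosing them by their highest count in these same libraries favours such shares, which were not computed for other genes. Against the DP-seq libraries, each set alone called 56.4% to 63.9% of all genes.

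In primer sets 1, 2 and 3 in turn, Snord22 had 1435, 0 and 14 counts, Snora70 345, 0 and 1, and Snora31 57, 0 and 0. Snora17 had 1, 150 and 1 counts, Snora65 0, 101 and 1, and Snora68 0, 33 and 0. Snord14a had 0, 0 and 135 counts and Snord96a 0, 0 and 68. These snoRNAs were grouped here by the set that held most of their counts. The grouping is therefore a description of 1 library a set and not a test. Snord123, the leading short RNA of every dilution library from 50 pg to 10 ng, had 187, 3 and 0.

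By CPM relative to the pooled 1 ng and 100 pg DP-seq libraries, Snord22 was 42.7-fold and Snora70 53.5-fold higher with primer set 1, and Snora31 146-fold higher, with a counting interval of 38.5 to 1230 on 2 counts. With primer set 2, Snora65 was 38.6-fold, Snora68 33.6-fold, Snora17 30.6-fold and Mir703 18.6-fold higher. With primer set 3, Snord14a was 385-fold higher (interval 105 to 3210, on 2 counts) and Snord96a 194-fold (51.7 to 1630, on 2 counts). Except for Rack1, the hosts of these snoRNAs with values here were lower than in the DP-seq libraries. Rpl10, Rps13 and Rpl12 are ribosomal protein genes, and the primer sets are labelled for suppression of ribosomal transcripts. Snord14a and Snord96a lie in annotated exons by the placement above, where reads of spliced host RNA can fall. The part of host reads in these counts was not tested. Snhg1, the host of Snord22, had 189 CPM with primer set 1 and 218 to 605 CPM in the 4 DP-seq libraries. Rpl10, the host of Snora70, had 128 CPM with primer set 1 and 1141 to 1915 CPM in the DP-seq libraries. Rps13, the host of Snord14a, had 556 CPM with primer set 3 and 2375 to 5188 CPM in the DP-seq libraries. Rpl12, the host of Snora65, had 19.5 CPM with primer set 2 and 987 to 4073 CPM in the DP-seq libraries. By contrast, Rack1, the host of Snord96a, had 13130 CPM with primer set 3 and 611 to 772 CPM in the DP-seq libraries. The primer sequences were not analysed here, so whether the snoRNAs hold primer sites was not tested.

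Host transcripts moved by primer set as well. Mir17hg reached 1669 CPM with primer set 3, against 21.2 CPM pooled over the DP-seq libraries (78.8-fold). Primer set 2 lowered Snhg1 41.6-fold, Snhg3 18.1-fold and Snhg6 15.9-fold, and primer set 3 left Snhg6 with no count, at least 267-fold lower. In edgeR's test of each primer set alone, 13 of 33 members were called for set 1 (8 higher and 5 lower; 56.4% of all genes called), 20 for set 2 (12 higher and 8 lower; 63.9%) and 14 for set 3 (8 higher and 6 lower; 61.6%). The mean of the 3 sets gave 15 members, 4 higher and 11 lower (61.2%, with 25.6% higher and 35.6% lower). These shares of members lie below those of all genes. With 1 library a set, each set is assumed to vary like the DP-seq pairs. The paired-end library detected 21 short RNAs, led by Snora23 with 50 counts.

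Across the activin dose set, no member changed past the threshold. A slope over SFM, AA3, AA15 and AA100 as equal steps called none of 35 members tested, 21 of them short RNAs (0.397% of all genes called, 0.149% higher and 0.248% lower), with 4 members at an unadjusted p under 0.05, as had 12.7% of all genes. Direct comparisons of SB with SFM and of AA100 with SFM called none of 37 members (0% of all genes called in both), with 1 member each at an unadjusted p under 0.05, as had 1.47% and 4.44% of all genes. These counts turn on the SFM pair: without the first SFM library 29 of 36 members were called in both comparisons, along with 7055 and 7156 genes in all, and without the second 1 and 2 members, along with 498 and 1560 genes. DESeq2 called 2 members in the slope and 497 genes in all.

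Those 2 were miRNA hosts. Mir124-2hg, the host of the neural miRNA miR-124, had 10.4 CPM in SB, 2.86 and 0.536 in SFM, 0.255 in AA3, 0.191 and 0.0685 in AA15 and 0 in AA100. The counts behind these values were 156 in SB, 44 and 7 in SFM, 4 in AA3, 3 and 1 in AA15 and 0 in AA100. Levels of SB and SFM lie above all activin libraries. The slope of −1.99 ± 0.40 per step had an adjusted p of 0.105 in edgeR, 0.00523 in DESeq2 and 0.0012 in edgeR without the second SFM library. Mir17hg, the primary transcript of miR-17/92, had 35.0 CPM in SB, 20.7 and 45.2 in SFM, 8.72 in AA3, 7.45 and 8.50 in AA15 and 7.25 in AA100. SB and SFM again lie above all activin libraries, which lie between 7.25 and 8.72 CPM. Its slope of −0.87 ± 0.24 had an adjusted p of 0.222 in edgeR and 0.0429 in DESeq2. Without the second SFM library it was −0.46 (adjusted p = 0.0367). Summed neuroectoderm markers were likewise higher in SB and SFM, at 552 CPM and at 291 and 464 CPM. They fell further with dose, from 77.7 in AA3 to 20.7 and 22.5 in AA15 and 7.90 in AA100. Mir17hg stayed between 7.25 and 8.72 CPM there. In the SFM pair, Mir124-2hg was lower in the library with the higher marker sum. The part of these markers in the result was not tested.

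No short RNA of the dose set had a slope with an unadjusted p under 0.05. The slope was above 0 for 17 of the 21 tested (median 0.26, beside 0.001 for all genes), and for 13 of 20 without the second SFM library (median 0.07), in which the short RNAs sum to 20.8 CPM. Snord22 had 6.32 CPM in SB, 4.87 and 1.92 in SFM, 2.10 in AA3, 3.70 and 4.66 in AA15 and 3.88 in AA100. Snora17 had 6.45 CPM in SB, 5.78 and 0 in SFM, 4.52 in AA3, 2.55 and 4.38 in AA15 and 4.34 in AA100. For both, the SFM pair spans the whole range of the activin libraries. Snord72 held 24 to 44 counts in each dose set library but the second SFM one, which had 0, and at most 4 in any dilution library. AA3 libraries of these sets also differed in markers, as given above, and the cause of the gap was not tested. Among the hosts, Snhg1 had 261 CPM in SB, 291 and 294 in SFM, 185 in AA3, 279 and 252 in AA15 and 230 in AA100, with AA3 the lowest. Its slope was −0.13 ± 0.15 (adjusted p = 0.675 in edgeR).

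**Figure D4:**
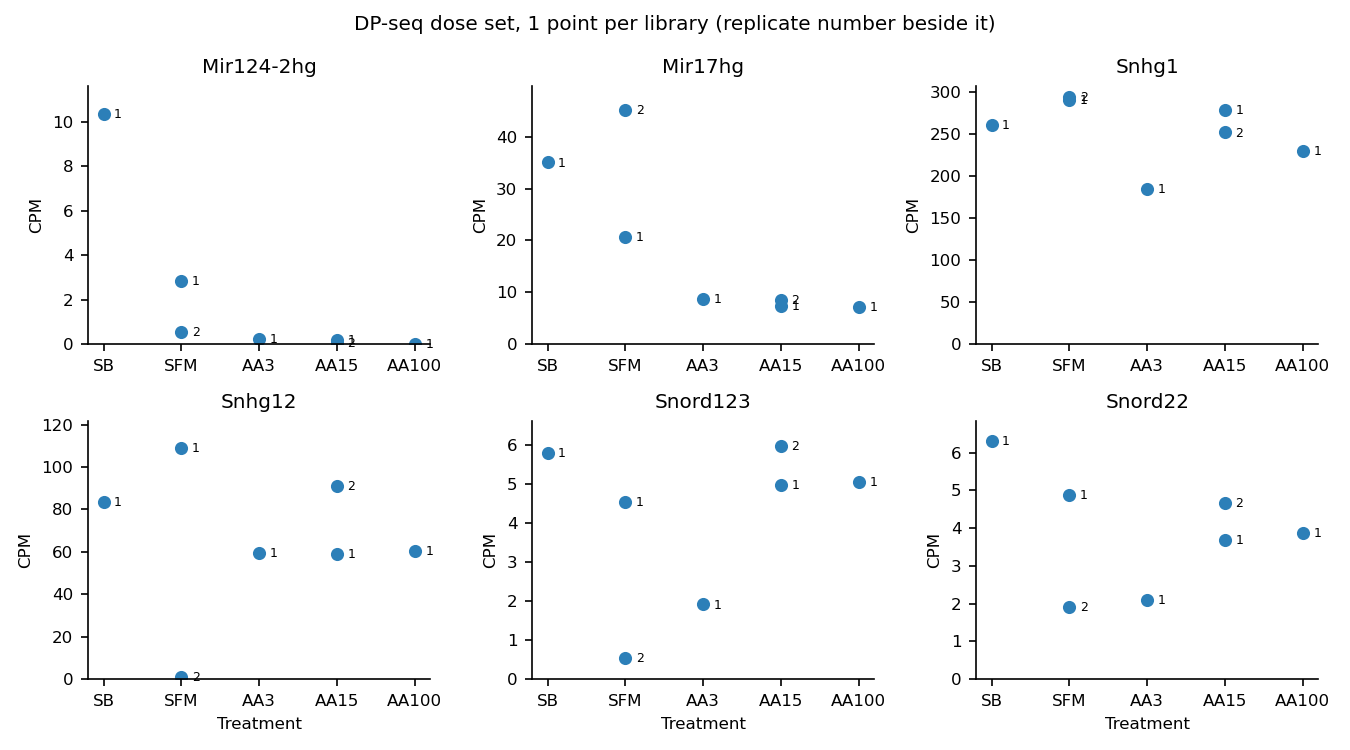
CPM of Mir124-2hg, Mir17hg, Snhg1, Snhg12, Snord123 and Snord22 in the dose set from SB and SFM to AA100, 1 point per library with its replicate number. Mir124-2hg and Mir17hg are highest in SB and SFM, and the second SFM library is lowest for Snhg12, Snord123 and Snord22.

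Between AA100 and AA3 the 3 methods differed in how much they called. Standard RNA-seq called 14 of 34 members, 5 higher and 9 lower in AA100, where 62.3% of all genes were called (31.1% each way); its spread rests on the AA3 pair of technical replicates, and DESeq2 called 8. SMART-seq called none of 50 members (1.35% of all genes called, 0.786% higher and 0.568% lower), with 5 at an unadjusted p under 0.05, as had 17.6% of all genes, and 4 called by DESeq2, which called 1135 genes in all. The 50 pg DP-seq libraries called 1 of 28 members (3.43% of all genes called, 2.27% higher and 1.16% lower). A difference between methods in the dose effect passed the threshold for none of 54 members and for few genes of 14072, 120 between SMART-seq and standard, 104 between 50 pg DP-seq and standard and 3 between SMART-seq and 50 pg DP-seq.

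Of the Snhg genes, standard RNA-seq called 7 of 11, with Snhg1, Snhg6, Snhg7, Snhg14, Snhg16 and Snhg17 lower and Snhg8 higher in AA100, close to the 62.3% of all genes called. DESeq2 did not call Snhg6 (adjusted p = 0.125). Snhg1 had 70.1 CPM in standard AA100 and 104 and 102 in AA3, 98.7 and 131 in SMART-seq AA100 and 199 and 164 in AA3, and 235 and 162 in 50 pg DP-seq AA100 and 294 in AA3. AA100 lies below AA3 in all 3 methods of this set. The DP-seq dose set ran the other way for Snhg1, with 230 CPM in AA100 and 185 in AA3. The single 50 pg DP-seq AA3 library also differed from the 50 pg AA3 libraries of the dilution, which had 510 and 448 CPM. The log2 change was −0.53 ± 0.06 in standard RNA-seq (adjusted p = 9.03e-18), −0.72 ± 0.19 in SMART-seq (0.143; DESeq2 0.00355) and −0.57 ± 0.25 in 50 pg DP-seq (0.258). Snhg14, summed over its rows, fell by 0.65 ± 0.04 on the log2 scale in standard RNA-seq, and its SMART-seq value of −0.82 ± 0.16 had an adjusted p of 0.085 in edgeR and 0.00195 in DESeq2. Mir17hg had 61.4 CPM in standard AA100 and 109 and 99.0 in AA3, 40.1 and 42.4 in SMART-seq AA100 and 57.5 and 81.0 in AA3, and 7.98 and 0.747 in 50 pg DP-seq AA100 and 11.4 in AA3. It fell by 0.74 ± 0.06 on the log2 scale in standard RNA-seq; the SMART-seq value of −0.80 ± 0.23 had an adjusted p of 0.161. Snhg3 had 90.6 and 88.4 CPM in SMART-seq AA100 and 46.7 and 49.4 in AA3, 21.5 and 28.7 in 50 pg DP-seq AA100 and 21.4 in AA3, and 27.2 in standard AA100 and 33.6 and 28.9 in AA3. Its SMART-seq change of 0.84 ± 0.15 had an adjusted p of 0.0761, and the difference from the standard RNA-seq change was not past the threshold (adjusted p = 0.391). In 50 pg DP-seq, the called member was Snhg6, the host of Snord87 (−0.88 ± 0.21, adjusted p = 0.0193). It had 233 and 227 CPM in AA100 and 419 in the single AA3 library, on which the call rests. The 50 pg AA3 libraries of the dilution had 222 and 239 CPM. In the dose set Snhg6 had 154 CPM in AA100 and 137 in AA3. The AA3 libraries of the dose set and the dilution were not alike in markers, as given above. SMART-seq had 64.6 and 65.6 CPM in AA100 and 80.5 and 78.2 in AA3.

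**Figure D5:**
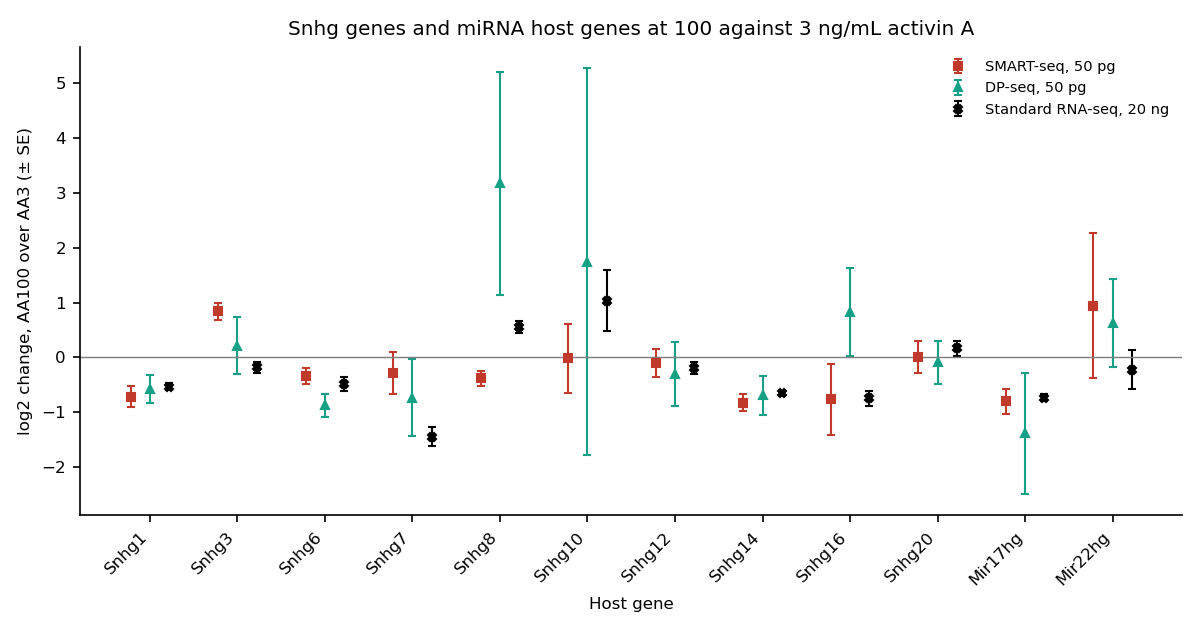
Log2 change of Snhg and miRNA host genes in AA100 over AA3, with its SE, in SMART-seq, 50 pg DP-seq and standard RNA-seq; the line marks no change. Snhg1, Snhg14 and Mir17hg lie below the line in each method, and the SE of standard RNA-seq is the smallest for these 3 genes.

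In standard RNA-seq, 6 of 21 short RNAs passed, 4 higher and 2 lower in AA100, a smaller share than the 62.3% of all genes called (31.1% each way). DESeq2 called Mir703 alone among these 6, giving adjusted p-values of 0.07 for Snora64, 0.0777 for Snord123 and 0.158 for Snora65 and none for Snora23 and Snora31. Mir703 had 3 counts in AA100 and 61 and 40 in AA3, which is 16.5-fold lower with a counting interval of 5.49 to 81.3. In SMART-seq the same row showed no such gap, with 426 and 393 counts in AA100 and 427 and 456 in AA3 (log2 change −0.04 ± 0.33). The difference between these changes was 3.85 ± 1.09 with an adjusted p of 0.233. Snora64, an H/ACA snoRNA in Rps2, had 5 counts in AA100 and 31 and 17 in AA3. Higher in AA100 in edgeR were Snord123 (111 counts, against 72 and 56), Snora65 (66, against 39 and 35), Snora31 (20, against 10 and 8) and Snora23 (16, against 3 and 4). The libraries of both doses held nearly equal totals, so that none of these groups overlapped. In SMART-seq Snora65 ran the other way, with 1.43 and 1.52 CPM in AA100 and 3.44 and 2.09 in AA3, without passing the test.

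The genes that make and use these RNAs were followed in lists of the snoRNP and miRNA pathways. In standard RNA-seq, where 1 AA100 library is set against a technical pair and 31.1% of all genes were called each way, all 5 H/ACA snoRNP proteins were higher in AA100, by log2 0.58 for Nhp2, 0.35 for Wrap53, 0.29 for Nop10, 0.19 for Dkc1, the pseudouridine synthase, and 0.19 for Gar1. Of 4 C/D snoRNP proteins, 3 were higher, among them the methyltransferase Fbl (0.25), and Nop56 was lower (−0.06). All 6 miRNA processing genes were lower, from −1.50 for Drosha and −0.61 for Tarbp2 to −0.38 for Dicer1, −0.29 for Dgcr8 and −0.14 for Xpo5, as were 5 of 7 effector genes such as Ago2 (−0.49). Lin28a and Lin28b, which block let-7 maturation, were lower too, at −0.85 and −0.26. The list medians were 0.29 for H/ACA proteins and −0.38 for miRNA processing, beside −0.01 for all genes. SMART-seq and 50 pg DP-seq called no gene of the snoRNP protein and miRNA processing lists. In SMART-seq the medians were −0.08 for H/ACA proteins, −0.26 for C/D proteins and 0.02 for miRNA processing, beside 0.01 for all genes. In 50 pg DP-seq they were −0.05, −0.24 and −0.31, beside 0.07 for all genes, so that the snoRNP medians of both methods lie on the other side of 0 from the standard ones, which are 0.29 for H/ACA and 0.13 for C/D proteins. Among 24 snoRNA host genes outside the Snhg names, 14 were higher and 9 lower in standard RNA-seq (31.1% of all genes called each way). SMART-seq called 2 higher and 5 lower (0.786% and 0.568% of all genes), with Gas5, a host of several C/D snoRNAs, at −0.61 ± 0.08 in SMART-seq and 0.11 ± 0.03 in standard RNA-seq; the difference was not tested. Mest, an imprinted gene that hosts miR-335, was higher in both, by 1.30 ± 0.11 in SMART-seq and 1.59 ± 0.02 in standard RNA-seq. None of these lists had a gene past the threshold in the dose set slope.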

How the data were processed

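Each of the 33 libraries has 1 table that the authors deposited, and its values, per the file headers, count uniquely assigned reads of each RefSeq transcript. Of the deposited values, 15 in 8 libraries are not whole, and these were treated as estimated counts and rounded. The sources used here name no aligner, counting rule, strand, RefSeq release or genome build, and coordinates are therefore left out. Per the labels' protocols, mRNA was isolated from total RNA, and SMART-seq cDNA was amplified with 13 cycles. Library totals ran from 427556 to 30609013 counts.

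Rows were named through a RefSeq gene table (25857 of 26566) and GENCODE (150, including 2 member rows) and summed to 21844 genes. Groups follow the labels. The whole table was tested with edgeR 4.0.16 in R 4.3.3: filterByExpr by group (minimum count 10, minimum total 15), TMM scaling, robust quasi-likelihood fits and Benjamini-Hochberg adjustment at 0.05. DESeq2 1.42.0, RLE scaling, no filter, unsummed rows, leaving out each replicate and a replicate block were alternatives. SE is the log2 change over the square root of F. Method comparisons used 1 fit of 10 libraries, dilution comparisons all 12, and each dose comparison its own method's libraries. Single libraries are taken to vary as the other libraries of the fit do. Detection was compared by hypergeometric thinning. The fitting script was tested on simulated data. Named genes were the 15 short RNAs of highest mean CPM, up to 8 called short RNAs per comparison by adjusted p, the Snhg and miRNA host genes, and called list genes. Others named for primer sets, families or hosts were chosen after their values were seen. The members and lists were chosen with earlier results of these data known.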

Additional observations from a re-analysis of the deposited data

How the results depend on the processing

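Numbers of members called were recomputed under each alternative. The number of all genes called also moved between these fits, so a shift in members alone is no result about them. With DESeq2 it went from 48 to 497 for the dose slope and from 7849 to 4431 for standard AA100 and AA3. DESeq2 gave 2 (dose slope), 8 (standard AA100 and AA3), 4 (SMART-seq AA100 and AA3), 2 (50 and 100 pg and 10 ng), 6 (1 and 10 pg and 10 ng) and 9 (primer sets). Leaving out 1 replicate gave 0 to 2 for the dose slope, 0 to 29 for SB and SFM and for AA100 and SFM, 0 to 0 for SMART-seq AA100 and AA3, 12 to 22 for SMART-seq and standard, 7 to 21 for 50 pg DP-seq and standard, 18 to 33 for SMART-seq and 50 pg DP-seq, 0 to 4 and 1 to 6 for the dilutions and 10 to 18 for the primer sets. A replicate block gave 11 for 50 pg DP-seq and standard, 1 for 1 and 10 pg, 13 for SMART-seq and standard and 16 for the primer sets, and moved no other count by over 1.5 times. Numbers did not pair the libraries: deviations of same-numbered libraries correlated at −0.25 (SFM and AA15), −0.01 (SMART-seq) and −0.08 to 0.17 (dilution). Chosen after seeing the data, a crossed block called 0 in the 3 dose set comparisons, 10 pg alone called 2, each primer set alone called 13, 20 and 14, and fits without scaling factors gave 4 for 1 and 10 pg. The cause was not tested. No block or leave-one-out fit could be had for AA100 and AA3 in standard or in 50 pg DP-seq libraries, which have no residual degrees of freedom then. Of 1069 values under alternatives for 101 results of single genes in a comparison, 146 lost the call, 8 gained it and 0 changed sign. Alternatives that gave a gene no value or no adjusted p are left out of these numbers. Depth limits the short RNAs: at 1 pg a count of 0 allows up to 7.02 CPM. Groups of 1 or 2 technical replicates do not measure spread between cultures.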
